A study of Mus musculus with 6 samples.

Results

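The simple epithelial keratins examined here are Krt8, Krt18, Krt7 and Krt19. They were chosen by name, as the rows of the gene tables that carry one of these symbols alone or joined to other symbols. Each of the 4 genes had a row of its own among the 23698 rows of each table. The cells were SCCc, cultured squamous cell carcinoma cells of mouse, with the genotype HrasG12V; Tgfbr2 fl/fl KO. They are keratinocytes taken from back skin at P0, the day of birth, carried as a previously made line and used at passages 10 to 15. The study asked how transcript isoforms differ between epidermal stem cells, wild-type keratinocytes and SCCc. It compared translation between wild-type keratinocytes and SCCc. Of its libraries, 3 of SCCc were used here, 1 from ribosome profiling and 2 from RNA-seq, and all 3 share the same genotype, skin age and passages. No wild-type library was used, so every value describes SCCc alone.

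Keratins build intermediate filaments only as pairs of an acidic type I and a basic type II chain, so a cell that makes one type needs a partner of the other. Krt8 and Krt7 are type II chains, and Krt18 and Krt19 are type I chains. These genes are typical of simple and glandular epithelia, while the basal layer of the epidermis is built on Krt5 and Krt14. In skin, Krt8 and Krt18 mark Merkel cells, Krt7 is found in glands, and Krt19 is known from the hair follicle bulge.

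Ribosome profiling sequences the pieces of mRNA that ribosomes shield from nuclease, called footprints, and RNA-seq measures the mRNA itself. The sum of exon counts was 3549555 for ribosome profiling, 10707930 for the first RNA-seq replicate and 14003713 for the second. Levels are given as RPKM, in which counts are divided by the counted length and by the exon counts of the library. Footprints were taken on the CDS and RNA on all exons. Intervals are 95% and cover counting error alone, with each read treated as independent. The study's methods name no step that removed PCR duplicates, and duplicates counted as separate reads make the intervals too narrow. Only a single ribosome profiling library was used, so footprints have no replicate spread, and other ribosome profiling libraries of SCCc named in the study's methods were not analysed here. Nothing in the sources used here says whether footprints and RNA came from the same cultures.

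In the GENCODE M21 annotation of GRCm38, Krt8 lies on the minus strand at chr15:101996698-102004482, with 9 exons and an annotated CDS of 1470 nt. Krt18 lies on the plus strand at chr15:102028180-102032027, with 7 exons and a CDS of 1269 nt. Only 23.7 kb separate these genes, so the type I gene Krt18 sits beside type II genes. Krt7 lies on the plus strand at chr15:101411043-101430313, with 9 exons and a CDS of 1371 nt. Krt19 lies on the minus strand at chr11:100140810-100148665, with 6 exons and a CDS of 1209 nt. The authors' tables counted all of the CDS of Krt8 and Krt19, 1340 nt of Krt7 and 1086 nt of Krt18.

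The members differ in how much of their CDS can be told apart from other genes. Each CDS was read in windows of 28 nt, about the length of a footprint, and searched for exactly in the annotated transcripts of all other genes. For Krt8, 656 of 1443 windows (45.5%) occurred elsewhere, and 645 of them were in the processed pseudogene Krt8-ps on chromosome 7. For Krt18, 205 of 1242 windows (16.5%) occurred elsewhere, in the processed pseudogenes Gm5200, Gm17847 and Gm7943. Krt7 shared 36 of 1344 windows (2.68%), mostly with Krt73, and Krt19 shared 25 of 1182 windows (2.12%), mostly with Krt17. None of these pseudogenes had a row in the tables. The study's methods name standard settings of the tools in general and do not spell out how reads that fit more than one place were counted, so the counts of Krt8 and Krt18 are uncertain to that extent. The following stretches show, for each member, the start of the longest run shared with the gene that shares most windows with it. Capitals mark 28 bases found exactly in that other gene, after 2 flanking bases of the member.
Krt8, shared with Krt8-ps: agTGGAGCCTGTTGCAGCAGCAGAAGACGT
Krt18, shared with Gm5200: tgGAGCAGCTCAATGGGGTCCTTCTGCATC
Krt7, shared with Krt73: cgCTGGACATTGAGATCGCCACCTACCGCA
Krt19, shared with Krt17: ttGAGATTGAGCTGCAGTCCCAGCTCAGCA
All are coding sequence on the strand of the gene in GRCm38. The Krt8 stretch lies in exon 2 at chr15:102001556-102001585, on the minus strand, and opens a run of 299 nt. The Krt18 stretch lies in exon 6 at chr15:102031351-102031380, on the plus strand, and opens a run of 54 nt. The Krt7 stretch lies in exon 7 at chr15:101423436-101423465, on the plus strand, and opens a run of 41 nt. The Krt19 stretch lies in exon 5 at chr11:100141282-100141311, on the minus strand, and opens a run of 35 nt. The runs of Krt7 and Krt19 are short matches between functional keratin genes, whereas those of Krt8 and Krt18 are matches to processed pseudogenes.

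**Figure D1:**
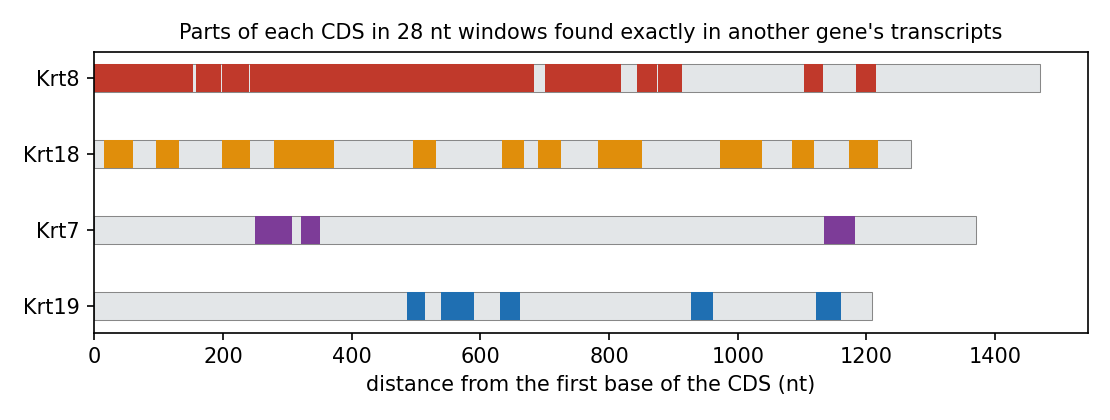
Each bar is the annotated CDS of a member, drawn to scale in nt from its first base, and coloured parts are covered by 28 nt windows found exactly in the transcripts of another gene. Shared parts cover much of the first CDS portion of Krt8, are scattered through Krt18 and are few in Krt7 and Krt19.

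Krt19 was by far the most abundant member at both levels. Its RNA stood at 565 RPKM in replicate 1 (8310 counts) and 669 RPKM in replicate 2 (12871 counts), a mean of 617 ± 73.6 (SD, n = 2). Its CDS carried 4032 footprints, or 939.5 RPKM (interval 911 to 969). Among the genes that passed the filters described below, it ranked 76 by RNA and 198 by footprints. Krt19 therefore held a high place in both kinds of library.

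Krt8 RNA was close to the lower limit of what was kept. It stood at 1.77 RPKM in replicate 1 (34.2 counts, interval 23.7 to 47.8) and 2.07 RPKM in replicate 2 (52.4 counts, interval 39.2 to 68.6), a mean of 1.92 ± 0.213 (SD, n = 2). Its CDS carried 295 footprints, or 56.5 RPKM (interval 50.2 to 63.3). A gene with little RNA thus had more footprint density than most genes, at percentile 75.5 of the passing genes by footprints and percentile 2.76 by RNA. The filters count those same footprints, as described below.

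Krt18, the usual partner of Krt8, showed the same arrangement. Its RNA stood at 4.04 RPKM in replicate 1 (52.3 counts, interval 39.1 to 68.5) and 4.37 RPKM in replicate 2 (74.0 counts, interval 58.1 to 92.9), a mean of 4.21 ± 0.235 (SD, n = 2). Its CDS carried 260.1 footprints, or 67.5 RPKM (interval 59.5 to 76.2). By footprints it lay at percentile 78.6 of the passing genes and by RNA at percentile 13.1.

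Krt7, the other type II chain, was near the limit of detection. Its RNA stood at 0.240 RPKM in replicate 1 (3.99 counts, interval 1.09 to 10.2) and 0.942 RPKM in replicate 2 (20.5 counts, interval 12.6 to 31.5). Its CDS carried 12.6 footprints, or 2.64 RPKM (interval 1.39 to 4.56). A level of 3 counts, the smallest taken here as detectable, corresponds to 0.180 and 0.138 RPKM of Krt7 RNA in replicates 1 and 2, so the gene was above it in both. The order of RNA levels was Krt19, Krt18, Krt8 and Krt7 in each RNA-seq library. The intervals of neighbours in that order did not overlap in replicate 1 or replicate 2.

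**Figure D2:**
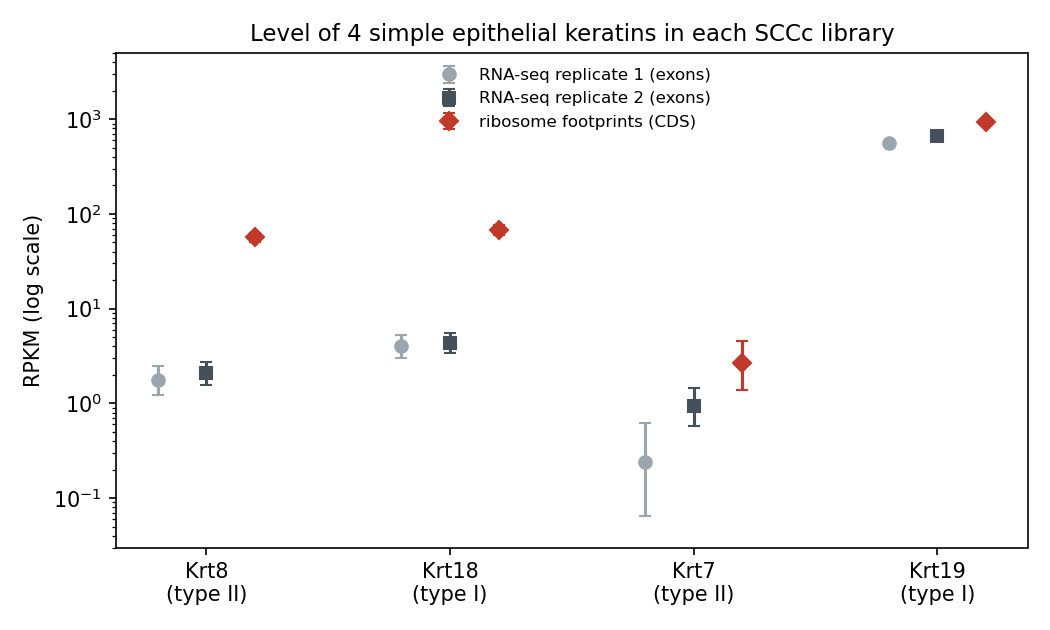
RPKM of each member on a log axis, on exons for the RNA-seq replicates and on the CDS for ribosome footprints, with 95% counting intervals. Krt8 and Krt18 lie between 1.77 and 4.37 RPKM in RNA-seq and at 56.5 and 67.5 RPKM in footprints. The 3 points of Krt19 lie close together. The distance between RNA-seq and footprint points depends on the library totals used. As deposited, with larger totals, Krt19 stood at 119 and 143 RPKM in RNA-seq and 16.4 RPKM in footprints. Deposited footprints of Krt8 and Krt18, at 0.988 and 1.18 RPKM, were still above their deposited RNA-seq values.

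The RNA-seq replicates gave like values for the members other than Krt7. The log2 ratio of replicate 2 to replicate 1 was 0.23 for Krt8 (interval -0.42 to 0.89), 0.11 for Krt18 (interval -0.42 to 0.65) and 0.24 for Krt19 (interval 0.20 to 0.28). Across all passing genes this ratio had an SD of 0.20. For Krt7 it was 1.98, with an interval of 0.40 to 3.98 that reflects its few counts.

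Translational efficiency was taken as footprint RPKM on the CDS over mean RNA-seq RPKM on exons, on the log2 scale, relative to the median gene of those kept. A gene was kept, or passed the filters, when each RNA-seq library gave it over 1 RPKM, its base mean over the 3 libraries exceeded 25 and its counted CDS held footprints. This was so for 9862 genes, and for 3 of the 4 members. Krt7 did not pass. Across the passing genes the SD of this log2 value was 1.45. The base mean includes the footprint library, so a gene with few RNA counts can pass through its footprints. For Krt8 the base mean was 315.9, with 34.2 and 52.4 RNA counts and 295 footprints, so it rested mainly on footprints.

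Krt8 had a log2 translational efficiency of 4.54 (counting interval 4.19 to 4.90), which placed it at rank 53 of 9862. Because its base mean rested mainly on footprints, this rank is not independent of the filter. Set against a single RNA-seq library, the value was 4.64 with replicate 1 and 4.40 with replicate 2. On a linear scale, Krt8 had 23.2 times as many footprints per RNA as the median gene. Krt18 had a log2 translational efficiency of 3.66 (counting interval 3.35 to 3.98), at rank 118, with 3.70 against replicate 1 alone and 3.58 against replicate 2 alone. This is 12.65 times the median gene. The counting intervals of Krt8 and Krt18 do not overlap, and both lie far above zero.

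Krt19 had a log2 translational efficiency of 0.26 (counting interval 0.22 to 0.31), at percentile 59.2, with 0.37 against replicate 1 alone and 0.12 against replicate 2 alone. It thus lay near the middle of all genes, and its sign is not stable, since the value was -0.13 relative to the median of the genes for which each library held 100 counts or more. For Krt7 the same calculation gave 1.82 (counting interval 0.71 to 2.85), but 3.10 against replicate 1 alone and 1.12 against replicate 2 alone. A value for Krt7 that rests on so few counts is given only as a description.

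Of the 3 members that passed, 2 had a log2 translational efficiency above 1, against 20.7% of all passing genes (2046 of 9862). None had a value below -1, against 21.1% of all passing genes (2077 of 9862). Krt8 is among the 2 above 1, and since it was kept by a base mean that counts footprints, this tally is a description only. Among the 1640 passing genes with a mean RNA level from 1 to below 5 RPKM, a range chosen after the values of the members were seen, the SD was 1.77, and 24.8% were above 1. Krt8 lay at percentile 98.8 of these genes and Krt18 at percentile 97.6. These genes were kept by a base mean that counts footprints, so the percentiles depend in part on the value ranked. With the filter applied to the RPKM as deposited, which uses larger library totals, neither gene passed. Their deposited RNA values were 0.374 and 0.442 RPKM for Krt8 and 0.853 and 0.934 RPKM for Krt18. Their deposited footprint values on the CDS were 0.988 RPKM for Krt8 and 1.18 RPKM for Krt18.

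**Figure D3:**
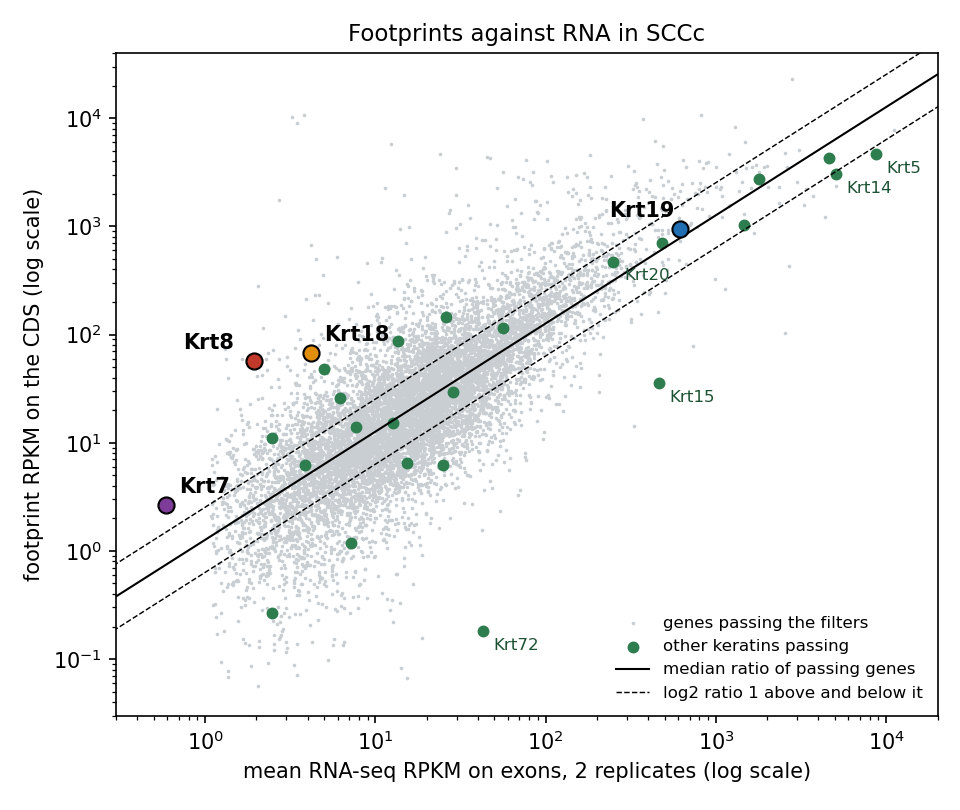
Footprint RPKM on the CDS against mean RNA-seq RPKM on exons, both on log axes, for the 9862 passing genes (grey), other passing keratins (green) and the members (large circles). The solid line is the median ratio and the dashed lines lie 1 log2 unit from it. Krt8 and Krt18 lie far above the upper dashed line, at log2 values of 4.54 and 3.66, and Krt19 lies near the solid line.

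Because keratins pair, the balance of type II over type I chains was compared between RNA and footprints. For Krt8 over Krt18, the ratio of RNA RPKM was 0.438 in replicate 1 (interval 0.276 to 0.687) and 0.474 in replicate 2 (interval 0.326 to 0.684). The ratio of footprint RPKM was 0.837 (interval 0.706 to 0.993). In these counts the pair was closer to equal density in footprints than in RNA. The footprint interval overlaps neither RNA interval, but it lies close to both. All 3 intervals cover counting error alone. Of the CDS windows, 45.5% of those of Krt8 and 16.5% of those of Krt18 occur in other genes. The part of such reads in these ratios was not tested. For all members, Krt8 and Krt7 together over Krt18 and Krt19 together, the log2 ratio was -7.95 in mean RNA, with -8.14 and -7.80 in replicates 1 and 2, and -4.09 in footprints. Krt19 dominated the type I side in each library, so the members were far from balanced among themselves. Over all keratins with a row of their own, type II exceeded type I 1.81-fold and 1.82-fold in RNA replicates 1 and 2 and 1.87-fold in footprints.

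Reads on the untranslated regions were few, and only Krt19 had enough of them for a firm value. The counted 5′UTR of Krt19, 60 nt, held 56.5 footprints. Their density per nt was 0.282 of that on the CDS (interval 0.213 to 0.367), at percentile 43.7 of the 4103 genes with at least 100 footprints on the CDS and at least 50 nt of counted 5′UTR. The same ratio in RNA-seq was 0.274 in replicate 1 (interval 0.225 to 0.331) and 0.370 in replicate 2 (interval 0.324 to 0.422). Footprints on the Krt19 5′UTR were thus about as dense, relative to the CDS, as its RNA-seq reads.

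On the 3′UTR the picture for Krt19 was different. The counted 105 nt held 25.3 footprints, a density of 0.0723 of that on the CDS (interval 0.0469 to 0.107), at percentile 89.0 of 4786 genes whose median was 0.0172. RNA-seq reads there had a density of 0.0437 of that on the CDS in replicate 1 (interval 0.0297 to 0.0621) and 0.0569 in replicate 2 (interval 0.0436 to 0.0730). Over all genes with enough counts the RNA-seq medians were 0.604 and 0.564. The Krt19 3′UTR thus had few RNA-seq reads for its CDS, at percentiles 4.07 and 5.92. The genes ranked with Krt19, in footprints and RNA-seq, had at least 50 nt of counted 3′UTR. They were not matched to its 105 nt, and the part of 3′UTR length was not tested. The intervals of footprints and RNA-seq overlap.

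For Krt8, 8.996 footprints fell on 103 nt of 5′UTR, a density of 0.436 of that on the CDS (interval 0.197 to 0.838). A further 5.21 footprints fell on 232 nt of its 3′UTR, a density of 0.112 (interval 0.0371 to 0.260). The median gene had a footprint ratio of 0.328 on the 5′UTR, which lies inside the Krt8 interval. On the 3′UTR the median of 0.0172 lies below the Krt8 interval, and Krt8 was at percentile 94.4. The 3′UTR percentiles are over genes with at least 50 nt of counted 3′UTR, not matched in length to the members. The part of 3′UTR length in them was not tested. For Krt18, 4.68 footprints fell on 61 nt of 5′UTR, a density of 0.320 (interval 0.0983 to 0.777), and 1.11 on 61 nt of 3′UTR, a density of 0.0761 (interval 0.00263 to 0.398) at percentile 89.7, with the median inside the interval. Krt7 had 0 footprints on either untranslated region, which its 12.6 CDS footprints do not allow to be read further. RNA-seq counts on these regions of Krt8, Krt18 and Krt7 were below 5 in every library, and their ratios were not determined to better than their wide intervals. Of the footprints on exons, 95.4% of those of Krt8, 97.8% of those of Krt18 and 98.01% of those of Krt19 lay on the CDS, against 90.1% in the library as a whole.

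**Figure D4:**
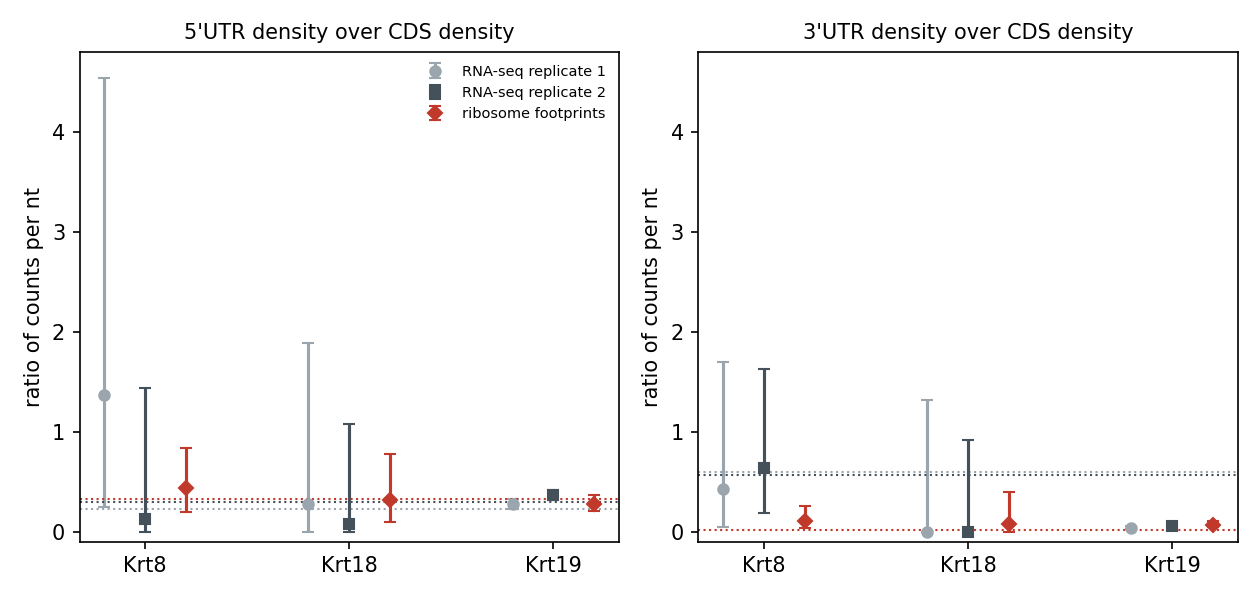
Counts per nt on the 5′UTR (left) and 3′UTR (right) divided by counts per nt on the CDS, for members with RNA-seq and footprint counts, with 95% intervals. Dotted lines are the medians over all genes with enough counts in each library and at least 50 nt of the region, not matched in length to the members. On the 3′UTR, Krt19 RNA-seq lies at 0.0437 and 0.0569, far below the RNA-seq medians of 0.604 and 0.564.

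Among the keratins that passed the filters, Krt8 and Krt18 stood at the top by translational efficiency. Of 54 keratin genes listed, 49 had rows of their own, and 23 keratins other than the members were kept. The median log2 translational efficiency of these 23 was -0.08, with 5 above 1 and 8 below -1. The shares over all passing genes were 20.7% above 1 and 21.1% below -1. The highest was Krt75, a keratin of the hair follicle, at 2.91, so none of these 23 exceeded Krt8 or Krt18, and 10 exceeded Krt19. Krt77 (2.35), Krt42 (2.16), Krt80 (1.82) and Krt79 (1.72) followed. The value and place of Krt79 depend on the RNA-seq library, since its RNA was 2.86 and 9.50 RPKM in replicates 1 and 2, and its log2 translational efficiency was 2.82 against replicate 1 alone and 1.07 against replicate 2 alone.

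The abundant epidermal keratins lay lower. Krt5, the type II chain of basal keratinocytes, had a mean of 8724 RNA RPKM and a log2 translational efficiency of -1.25. Its partner Krt14 had 5093 RNA RPKM and -1.09. Among the keratins of wounded and cultured epidermis, Krt6a had a log2 translational efficiency of -0.46, Krt6b 0.27, Krt16 0.19 and Krt17 -0.85. Other genes share 77.3% of the CDS windows of Krt6a, 78.1% of those of Krt6b, 60.7% of those of Krt16, 37.5% of those of Krt14, 22.2% of those of Krt17 and 18.5% of those of Krt5, so the counts of these keratins are uncertain in the same way as those of Krt8 and Krt18. Krt20, a type I chain of Merkel cells and simple epithelia, had 250.0 RNA RPKM and a log2 translational efficiency of 0.57. The lowest values were those of Krt72 (-8.23, from 1 footprint), Krt15 (-4.03), Krt2 (-3.56, from 2 footprints) and Krt10 (-2.95, from 7 footprints), and Krt71 had 0 footprints. Krt2 has no firm place beside Krt15 and Krt10, since its counting interval was -6.62 to -1.69, which holds the values of both, and its value was -2.53 against replicate 1 alone and -4.19 against replicate 2 alone.

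The other listed keratins with at least 100 RNA counts in both replicates were Krt13 (-1.58), Krt23 (-0.08), Krt1 (0.52), Krt4 (-0.31), Krt73 (-2.34), Krt76 (0.70) and Krt78 (0.35). In the sum of all keratin RPKM, the 4 members made up 2.57% and 2.67% of RNA in replicates 1 and 2 and 5.76% of footprints. Krt19 alone made up 2.54% and 2.64% of RNA and 5.08% of footprints. Krt8 made up 0.00796% and 0.00818% of keratin RNA and 0.305% of keratin footprints, and Krt18 made up 0.0182% and 0.0173% of RNA and 0.365% of footprints. By RPKM within the family, Krt8 ranked 28 in mean RNA and 13 in footprints, and Krt18 ranked 23 and 12.

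**Figure D5:**
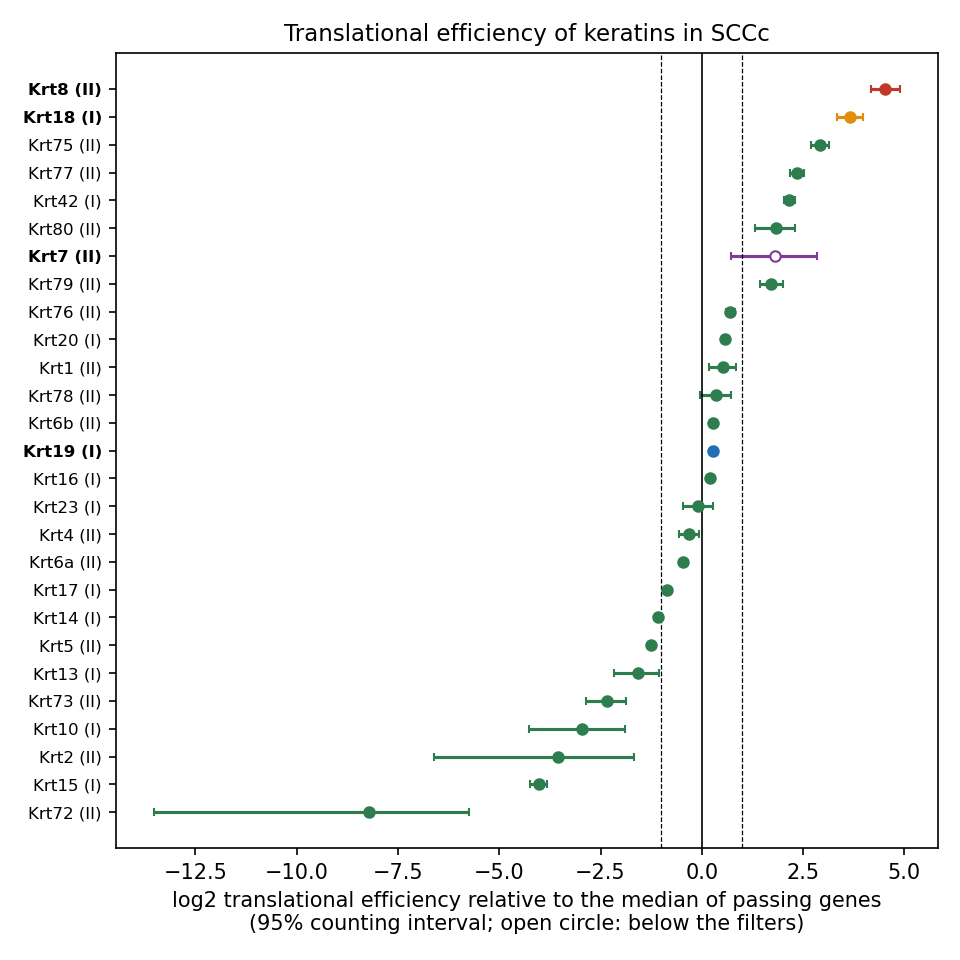
Log2 translational efficiency, relative to the median of passing genes, of the 23 other passing keratins (green) and the members (bold names), with 95% counting intervals. Roman numerals give the keratin type, dashed lines mark 1 and -1, and the open circle is Krt7, which did not pass the filters. Krt8 and Krt18 are the highest, and Krt19 lies at 0.26.

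Genes of other intermediate filaments, of junction proteins and of further proteins listed as keratin partners made up a list of 30, of which 27 were kept. The median log2 translational efficiency of the 27 was 0.78, with 12 above 1 and 10 below -1. Among all passing genes, 20.7% lay above 1 and 21.1% below -1. The 4 of 7 other filament genes that passed all lay above 1, and Lmna was the most abundant (108.9 RPKM, log2 translational efficiency 1.30). Of 7 plakins, some of which tie keratins to junctions, 6 lay below -1. Dsp was the most abundant of them (158.5 RPKM, -2.63) and Eppk1 the lowest of the whole list (-3.003). Of the plakophilins, Pkp1 was the most abundant (510.3 RPKM, -1.01). Of the 14-3-3 genes, whose products bind phosphorylated Krt18, 6 of 7 lay above 1, with Sfn the most abundant (779 RPKM, 0.998) and Ywhaz the highest of the list (3.40). Krtcap2 was the most abundant of the remaining genes (131.6 RPKM, 0.38), but despite its name its product is a subunit of the oligosaccharyltransferase and not a filament partner. Vim, the filament gene of mesenchymal cells, had RNA levels of 1.63 and 3.11 RPKM, close to that of Krt8, and 41.9 footprints on its CDS, with a log2 translational efficiency of 1.503.

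Markers of the cell types that carry simple keratins were read beside the members. All 8 keratinocyte markers had an RNA level above 1 RPKM in both replicates, with summed levels of 15348 and 17445 RPKM in RNA-seq replicates 1 and 2 and 9969 RPKM in footprints, and Krt5 was the most abundant. Of 6 Merkel cell markers, Atoh1, Piezo2 and Chga had 0 RNA counts in both replicates, and Krt20 made up most of the summed 287 and 252 RPKM of RNA and 513 RPKM of footprints. The other 2, the transcription factor genes Sox2 and Isl1, passed the filters as Krt20 did. Sox2 had 15.8 and 14.5 RPKM of RNA and 119 footprints (log2 translational efficiency 0.91), and Isl1 had 3.91 and 4.72 RPKM of RNA and 22.6 footprints (0.15). Of 8 markers of luminal or glandular epithelium, 7 passed the filters, and their summed level was 265 and 310 RPKM in RNA and 787 RPKM in footprints. Of these 7, 5 had a log2 translational efficiency above 1, against 20.7% of all passing genes, and the median was 1.19. Cldn7, a tight junction gene, had the highest value of these, 3.26.

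Of 5 hair follicle bulge markers, 2 passed, Sox9 was the most abundant (8.07 RPKM), and the summed level was 12.6 and 13.3 RPKM in RNA and 32.1 RPKM in footprints. The fibroblast, melanocyte, immune and endothelial lists were low in RNA. The 7 fibroblast markers summed to 10.2 and 16.0 RPKM of RNA, with Col3a1 the most abundant at 4.69 RPKM, and 6 of the 7 had 0 footprints. The exception was Pdgfra, a receptor gene of fibroblasts, with 10 footprints, or 0.870 RPKM, which is the footprint sum of the list, against 0.245 and 0.442 RPKM of RNA in replicates 1 and 2. The 4 melanocyte markers, led by Pmel, summed to 5.38 and 5.47 RPKM of RNA and 0.30 RPKM of footprints. The 4 immune markers, led by Cd74 and with Cd3e at 0, summed to 1.09 and 3.62 RPKM of RNA, and the 2 endothelial markers, led by Pecam1, to 0.160 and 0.270 RPKM, and neither list had footprints. The part of differing cell content between the libraries in the values of the members was not tested, and fewer cells of a type cannot be told apart from less RNA per cell.

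The genes most like each member in log2 RNA level and log2 translational efficiency were sought among the 4829 genes for which each library held 100 counts or more. The 3 nearest to Krt8 were Mal, Tyms and Dnaja1, at log2 translational efficiencies of 4.63, 4.02 and 5.30 and RNA levels of 3.48, 3.02 and 2.95 RPKM. The 3 nearest to Krt18 were Ccbe1, Tm4sf1 and Car5b, at 3.26, 4.05 and 3.27. Krt19 was nearest to Mt1, Shfm1 and Atp5b, among 4828 other genes, at 0.09, 0.23 and 0.18. Krt7 was nearest to Kif14, Syne1 and Cit, at 2.00, 1.19 and 1.44. Krt8, Krt18 and Krt7 themselves have fewer than 100 RNA counts, so these neighbours have more RNA counts than they do.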

How the data were processed

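The authors trimmed reads with Trim Galore, removed ribosomal, mitochondrial and tRNA matches from ribosome profiling reads with Bowtie2 2.4.1, aligned to GRCm38 with STAR 2.6.1 and counted gene regions with Plastid, the tools with versions being those of the submitters' processing notes. The deposited values are estimated counts, not normalized and not always whole, with 1 library per table. The deposited RPKM divide these counts by region length and a library total larger than the sum of exon counts. RPKM was computed again here from the counts and the sum of exon counts, with Python 3.11.15, numpy 2.4.6, pandas 2.3.3 and scipy 1.17.1. Counts were rounded for the base mean, which used median-of-ratios size factors. Intervals were exact Poisson for counts and Clopper-Pearson for ratios of counts, taken at the estimated counts. With 1 condition and 1 ribosome profiling library, no test of translational efficiency was possible, so no p-value is given. The calculation was tested on simulated data. Annotation and sequences came from GENCODE M21. Members and lists were chosen with earlier results of these data known. Named genes were the members, listed keratins with at least 100 RNA counts in both replicates, the most abundant and extreme partner genes, the most abundant and zero markers, and the 3 nearest genes of each member. A gene that this rule names is not reported here. Krt2, Krt79 and Krt80, and Cldn7, Vim, Pdgfra, Sox2 and Isl1, were named after their values were seen.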

Additional observations from a re-analysis of the deposited data

How the results depend on the processing

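The values of Krt8 and Krt18 stayed above 1 on the log2 scale under every alternative tried. With RNA-seq counted over the CDS they were 4.71 and 3.82, with a pseudocount of 1 RPKM 3.99 and 3.40, with counts not divided by length 5.25 and 4.52, and relative to genes that reach 100 counts in each library 4.14 and 3.27. Neither gene itself reached 100 RNA counts or passed the filter on deposited RPKM. Krt19 was at 1.09 with counts not divided by length and at -0.13 relative to genes with at least 100 counts. That last filter left 4829 genes, of which 908 lay above 1 and 757 below -1. The median of the other keratins was 0.022 with RNA-seq counted over the CDS, 0.65 with counts not divided by length, -0.20 with at least 100 counts and -0.41 with no filter, and ranged from -0.0019 to 0.11 without either RNA-seq replicate, so its sign is not stable. With counts not divided by length, the log2 ratio of type II over type I members was -7.60 in RNA-seq and -3.80 in footprints. The cause of these shifts was not tested. Of the 59 alternative values, 39 moved by less than the limit used for that result. These limits were the spread between replicates, the counting interval or, for counts of genes, 1.5 times. The spread between replicates came from the values without either RNA-seq replicate, and those values were then judged by it. For Krt7 this spread was wide (SD 1.40), so all its alternatives, from 0.88 to 3.10, were taken as unmoved. The tally of 39 is therefore a description and not a measure of stability. Some values taken as moved lay inside the counting interval. They were those of Krt8 and Krt18 with RNA-seq counted over the CDS, and that of Krt18 with the pseudocount. No paired analysis was possible because only 1 ribosome profiling library was used here. Few RNA counts limit Krt8, Krt18 and above all Krt7, and exact copies in pseudogenes limit Krt8 and Krt18.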
